A study of Mus musculus with 93 samples.

Results

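Cholesterol and fatty acid synthesis genes were examined as a group of 29 genes, chosen by name from the pathway. No measured value enters the list, but it was drawn up with earlier results of these data known. Of these, 28 were found among the 33924 gene names of the RNA count tables, and Hmgcs1 had no row there. They comprise 17 genes of the sterol pathway, 5 genes of fatty acid synthesis and 6 genes that regulate the pathways or carry sterol. All 28 passed the filter on low counts and were tested in each comparison.

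Cells build cholesterol from acetyl-CoA through mevalonate, isoprenoid units, squalene and lanosterol, and fatty acids from acetyl-CoA through malonyl-CoA. Both routes are driven by the SREBP transcription factors, which are made as membrane proteins of the endoplasmic reticulum. When sterol is scarce, the escort protein SCAP carries them to the Golgi for cleavage, and when sterol is plentiful the INSIG proteins hold SCAP back. INSIG1 is itself a target of SREBP.

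The study sequenced RNA of R1 cells, a mouse embryonic stem cell line that all groups share, cultured with serum and leukaemia inhibitory factor. Set 1 holds 3 wild type libraries and 3 libraries of the genotype Ring1b I53A, a point mutation of the subunit through which Polycomb repressive complex 1 ubiquitinates histone H2A. Set 2 holds 3 wild type libraries and 3 libraries of the genotype H1b/c/d/e-QKO, a label that names 4 linker histones. These are 12 of the 93 samples of the series, and the chromatin samples were not analysed here. The labels name no separate cultures or clones, so the p-values reflect library-to-library spread that may be only technical. Whether a lower level in such bulk RNA reflects fewer cells of a type or less RNA per cell cannot be told apart.

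Total counts ranged from 12585621 to 23378930 per library. Rnf2, the gene of Ring1b, fell by 1.00 on the log2 scale in I53A, which a point mutation need not do. Transcripts of the linker histone genes showed no loss under the QKO label, but most were too low to show one. Hist1h1b had 62, 53 and 72 counts in the libraries labelled QKO and 4, 9 and 2 in their wild type. Hist1h1c and Hist1h1d were not called, and Hist1h1e was too low to be tested. In wild type of set 2 Hist1h1d had 10, 3 and 14 counts and Hist1h1e 6, 0 and 2. Only Hist1h1c had more, with 143, 173 and 205 in wild type and 174, 129 and 202 under the QKO label. The deleted part of each gene was not known here, so the mutant group is named by its label. In set 1 replicate 3 stood apart in both groups, with chi-square values of 21.2 to 27.3 per degree of freedom over genes against the other replicates, where replicates 1 and 2 differed by 2.93 (wild type) and 4.06 (I53A). The embryonic stem cell markers Pou5f1, Nanog, Sox2, Zfp42, Esrrb, Klf4, Tdgf1 and Fgf4 were present in every library, with a sum of 4381 to 6787 CPM (counts relative to the scaled library total).

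Short motifs were counted in the promoters of the group, and any tie between them and the changes in level was not tested. RefSeq promoter windows of build GRCm38.p6, from 250 bases before to 50 after the start, were matched for 23 of the 29 genes (Sc4mol under its current symbol Msmo1). The letters CCAAT, the box bound by NF-Y, stood on either strand in 19 of the 23 (82.6%) and in 41.1% of 27025 genes with such a window. The letters GGGCGG, a GC box of the kind bound by Sp1, stood in 19 of 23 and in 38.2% of all genes. The core TCACNCCAC of a sterol regulatory element stood in 1 of 23, Hmgcs1, and in 1.44% of all genes. The shares of all genes take in genes whether or not they passed the filter on low counts, so they are not matched for expression. A gene counted if any of its windows held the letters, and each motif was searched on both strands on its own, also where 2 matches overlapped. Acat2, Acaca, Elovl6 and Scap had no CCAAT, and Pmvk, Fasn, Acaca and Elovl6 no GGGCGG, which says only that those letters are not in these windows. A match is a description of the letters and not a binding site.

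The 250 bases before the start follow for 7 genes, picked for the results below, 5′ to 3′ on the gene's own strand, with CCAAT and GGGCGG on either strand in capitals. The first 5 are the sterol genes with the lowest log2 fold changes in the libraries labelled QKO. They are chr3:89454291-89454540 on the plus strand for Pmvk (the more upstream of its 2 windows), chr5:114444019-114444268 on the plus strand for Mvk, chr8:122443423-122443672 on the minus strand for Mvd, chrX:8193513-8193762 on the minus strand for Ebp and chr19:6067851-6068100 on the minus strand for Tm7sf2. Fasn (chr11:120824548-120824797, minus strand) is the central fatty acid gene, and Insig1 (chr5:28071162-28071411, plus strand) had the largest difference between the mutants. All coordinates of these windows are GRCm38.p6.
Pmvk: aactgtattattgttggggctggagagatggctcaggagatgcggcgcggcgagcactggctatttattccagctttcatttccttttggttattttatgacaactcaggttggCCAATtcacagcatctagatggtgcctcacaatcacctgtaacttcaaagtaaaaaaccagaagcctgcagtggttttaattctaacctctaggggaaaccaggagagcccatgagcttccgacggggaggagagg
Mvk: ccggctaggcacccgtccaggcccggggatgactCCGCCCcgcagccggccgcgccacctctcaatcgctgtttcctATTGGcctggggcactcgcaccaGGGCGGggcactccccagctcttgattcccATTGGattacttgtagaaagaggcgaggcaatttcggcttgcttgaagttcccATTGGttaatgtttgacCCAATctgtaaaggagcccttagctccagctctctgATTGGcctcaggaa
Mvd: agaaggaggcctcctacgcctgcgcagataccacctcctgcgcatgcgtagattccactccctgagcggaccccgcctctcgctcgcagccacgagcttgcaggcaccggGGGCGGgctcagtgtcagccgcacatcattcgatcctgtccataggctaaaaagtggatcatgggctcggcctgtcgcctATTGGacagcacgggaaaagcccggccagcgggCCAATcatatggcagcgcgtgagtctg
Ebp: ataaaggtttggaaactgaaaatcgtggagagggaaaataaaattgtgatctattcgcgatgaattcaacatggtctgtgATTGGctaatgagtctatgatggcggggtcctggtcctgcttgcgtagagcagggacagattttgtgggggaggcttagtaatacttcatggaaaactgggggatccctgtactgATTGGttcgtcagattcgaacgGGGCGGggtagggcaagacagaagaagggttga
Tm7sf2: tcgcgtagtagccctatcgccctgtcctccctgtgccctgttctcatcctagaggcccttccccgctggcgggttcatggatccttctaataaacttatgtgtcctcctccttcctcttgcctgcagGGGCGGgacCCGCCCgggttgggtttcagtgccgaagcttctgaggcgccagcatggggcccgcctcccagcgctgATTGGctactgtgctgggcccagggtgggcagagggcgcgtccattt
Fasn: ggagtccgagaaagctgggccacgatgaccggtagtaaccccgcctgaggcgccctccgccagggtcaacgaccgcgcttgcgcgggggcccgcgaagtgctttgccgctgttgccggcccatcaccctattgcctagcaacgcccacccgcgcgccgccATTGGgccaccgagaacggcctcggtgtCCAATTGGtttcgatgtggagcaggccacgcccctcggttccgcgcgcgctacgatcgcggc
Insig1: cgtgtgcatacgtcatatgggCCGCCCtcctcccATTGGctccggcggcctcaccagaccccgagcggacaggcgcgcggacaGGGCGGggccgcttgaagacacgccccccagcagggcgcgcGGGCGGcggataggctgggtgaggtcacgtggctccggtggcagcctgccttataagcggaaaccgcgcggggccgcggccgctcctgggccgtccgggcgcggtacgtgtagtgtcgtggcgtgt
Pmvk held 1 CCAAT match and no GGGCGG in the window shown and neither in its other window. Mvk held 5 CCAAT and 2 GGGCGG matches before its start, and Ebp and Mvd each held 2 CCAAT matches and 1 GGGCGG match. Fasn held 3 CCAAT matches and no GGGCGG, with the overlapping pair seen as CCAATTGG, since CCAAT reads on both strands there. Insig1 held 1 CCAAT and 3 GGGCGG matches, and Tm7sf2 held 1 and 2.

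Levels were compared between genes only per length, as CPM divided by gene length in kilobases (FPKM). In wild type cells of set 1 the highest mean levels were those of Scd2 with 87.4 FPKM, Fasn with 55.6, Srebf2 with 40.9 and Elovl6 with 36.0. The lowest were Hsd17b7 with 3.36, Acaca with 4.14, Idi1 with 4.44 and Tm7sf2 with 4.49. In wild type cells of set 2 Scd2 again led with 199 FPKM, followed by Fdps with 107, Fasn with 83.5 and Srebf2 with 74.6. Tm7sf2 was lowest there with 5.27. Scd2, the stearoyl-CoA desaturase form that was highest in these cells, and its paralog Scd1 (21.9 FPKM in set 1 and 42.9 in set 2) are close copies, so their split of reads is uncertain.

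In the libraries labelled QKO, nearly the whole group was lower than in wild type. Of 28 genes tested, 24 were called lower, where 29% of all 15439 genes tested were called lower, and 1, Scap, was called higher, where 28.7% of all genes were. The calls lower comprised 14 of 17 sterol genes, 5 of 5 fatty acid genes and 5 of 6 regulators and carriers. The median log2 fold change was -0.33 over the group and -0.0033 over all genes tested. The 3 QKO values and the 3 wild type values did not overlap for 26 of 28 genes, where 61.5% of all genes had groups that did not overlap. Fdft1, Hsd17b7 and Dhcr7 were not called, with log2 fold changes of 0.09, -0.12 and 0.11. Summed over the 17 sterol genes, the level was 1485 to 1536 CPM in wild type and 1241 to 1254 CPM in the libraries labelled QKO, and over the 5 fatty acid genes it was 2455 to 2611 and 1806 to 1908 CPM.

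**Figure D1:**
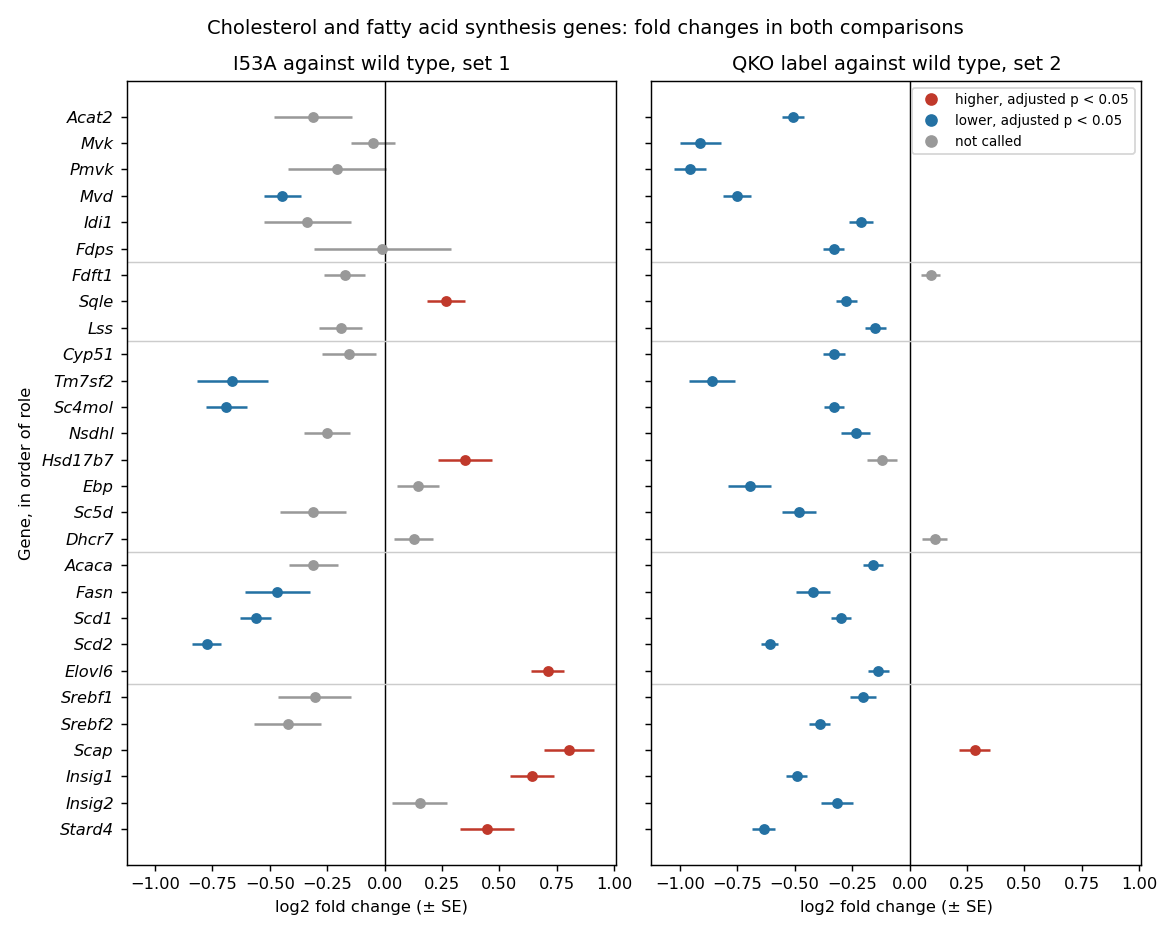
Log2 fold change (x axis, ± SE, 3 libraries against 3) of each of the 28 genes (y axis, grouped by role) in I53A against wild type of set 1 (left) and in the libraries labelled QKO against wild type of set 2 (right), coloured by the edgeR call. On the right 24 points are called lower, while on the left, in the fit without the replicate block, 6 are called lower and 6 higher.

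The steps from acetyl-CoA to farnesyl diphosphate held the largest decreases under the QKO label, and all 6 measured genes of these steps were called. Pmvk, phosphomevalonate kinase (chromosome 3, 89263040 to 89272935 of mm9), read 44.3, 42.4 and 40.3 CPM in the wild type replicates and 22.4, 21.7 and 21.3 CPM in those labelled QKO. Mvk, mevalonate kinase, read 24.3, 27.1 and 30.8 CPM against 14.6, 13.9 and 15.2 CPM. The groups did not overlap for either kinase, and every QKO value lay well under the lowest wild type value. Their log2 fold changes were -0.96 ± 0.07 for Pmvk and -0.91 ± 0.09 for Mvk (edgeR adjusted p = 6.3e-17 and 6.7e-13). Mvd, the decarboxylase that makes isopentenyl diphosphate, read 66.4, 68.7 and 74.9 CPM against 39.7, 40.8 and 44.5 CPM, a log2 fold change of -0.75 ± 0.06 (edgeR adjusted p = 8.3e-16). Acat2, the cytosolic thiolase that joins acetyl-CoA units, fell by 0.51 on the log2 scale. Fdps, which makes farnesyl diphosphate, fell by 0.33 and Idi1, the isopentenyl diphosphate isomerase, by 0.21. The calls of Fdps and Idi1 were lost when the spread was taken from all 12 libraries, with adjusted p = 0.146 for each.

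Later sterol steps under the QKO label were less uniform. Sqle, the squalene epoxidase, read 168, 162 and 161 CPM in wild type and 137, 137 and 132 CPM in the libraries labelled QKO, with no overlap (log2 fold change -0.27 ± 0.04, edgeR adjusted p = 3.9e-07). Lss, the lanosterol synthase, fell by 0.15 on the log2 scale, a call lost with the spread of all 12 libraries (adjusted p = 0.0836). Fdft1, squalene synthase, read 190, 191 and 196 CPM against 204, 205 and 206 CPM. Its groups did not overlap, and the QKO values were the higher ones, but the test did not pass (0.09 ± 0.04, edgeR adjusted p = 0.0517). Of the 8 genes from lanosterol to cholesterol 6 were called lower. Tm7sf2, a sterol C14 reductase, read 19.3, 18.1 and 17.6 CPM against 10.1, 10.6 and 9.64 CPM, a log2 fold change of -0.86 ± 0.10 (edgeR adjusted p = 1.5e-10). Ebp, the sterol isomerase, read 20.8, 20.5 and 20.7 CPM against 14.1, 12.4 and 11.8 CPM (-0.70 ± 0.09, edgeR adjusted p = 7.9e-09). All QKO values of both genes lay under all wild type values. Sc5d, a sterol desaturase, fell by 0.48, Cyp51, the lanosterol demethylase, by 0.33, Sc4mol, a C4-methylsterol oxidase, by 0.33 and Nsdhl, which acts with Sc4mol in removing C4 methyl groups, by 0.23 on the log2 scale. Hsd17b7, the ketosteroid reductase of the same step, and Dhcr7, the enzyme of a last step before cholesterol, were the 2 not called. Reads of Fdft1, Lss and Tm7sf2 are partly uncertain because their exons overlap those of Ctsb, 4930483K19Rik and 1110014N23Rik and the counting states no strand option.

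All 5 fatty acid genes were called lower under the QKO label. Scd2 read 1065, 1083 and 1114 CPM in wild type and 704, 705 and 732 CPM in the libraries labelled QKO (log2 fold change -0.61 ± 0.04, edgeR adjusted p = 2.4e-20). Fasn, the fatty acid synthase (chromosome 11, 120667254 to 120685492 of mm9), read 763, 781 and 923 CPM against 612, 585 and 648 CPM (-0.42 ± 0.07, edgeR adjusted p = 0.00127). Neither gene had overlapping groups. Scd1 fell by 0.30 and Acaca, the acetyl-CoA carboxylase that makes malonyl-CoA, by 0.16 on the log2 scale. Elovl6, which lengthens palmitate, read 233, 221 and 199.8 CPM against 204, 196.5 and 193 CPM, and these groups overlapped. Its call (-0.14 ± 0.05, edgeR adjusted p = 0.00908) was lost without wild type replicate 1 and without QKO replicate 3. The calls of Acaca and Elovl6 were also lost with the spread of all 12 libraries, and exons of Acaca and Scd2 overlap those of Gm17722 and AC123853.2.

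Among the regulators under the QKO label, the factors, both INSIG genes and the carrier were lower and the escort was higher. Srebf2, the factor that mainly drives sterol genes, read 352, 352 and 412 CPM in wild type and 277, 286 and 288 CPM in the libraries labelled QKO (log2 fold change -0.39 ± 0.05, edgeR adjusted p = 8.8e-09). Insig1 (chromosome 5, 28397952 to 28405201 of mm9) read 164, 155 and 168 CPM against 117, 115 and 114 CPM (-0.49 ± 0.04, edgeR adjusted p = 7.8e-14). Stard4, a soluble sterol carrier, read 104, 97.8 and 95.5 CPM against 62.6, 66.8 and 62.1 CPM (-0.64 ± 0.05, edgeR adjusted p = 1.5e-15). The groups did not overlap in these 3 genes. Insig2 fell by 0.32 and Srebf1, the factor tied more to fatty acid genes, by 0.20 on the log2 scale, a call lost with the spread of all 12 libraries (adjusted p = 0.239). Scap read 33.1, 32.7 and 35.8 CPM in wild type and 42.5, 42.5 and 39.1 CPM in the libraries labelled QKO, so its groups did not overlap and the QKO values were higher (0.28 ± 0.07, edgeR adjusted p = 0.000273). Exons of Srebf1 overlap those of Rai1 and exons of Scap those of 5830462I19Rik, so their reads are partly uncertain.

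In I53A members moved both ways, and how many were called lower depended on the fit. Without a replicate block, 6 of 28 genes were called higher, where 18.1% of all 15536 genes tested were called higher, and 6 lower, where 17.4% were. Both counts lie near those shares, so they do not set the group apart from genes at large. With the replicate numbers as a block the same 6 were called higher and 16 lower, where 28.1% and 28.5% of all genes were. Without the block, the genes called higher were Sqle, Hsd17b7, Elovl6, Scap, Insig1 and Stard4. Those called lower were Mvd, Tm7sf2, Sc4mol, Fasn, Scd1 and Scd2. By list, 2 sterol genes were called higher and 3 lower of 17, 1 fatty acid gene higher and 3 lower of 5, and 3 regulators or carriers higher and none lower of 6. The median log2 fold change was -0.20 over the group, with 19 of 28 values below 0, and -0.0010 over all genes tested. Groups did not overlap for 16 of 28 genes, not far from the 49.4% of all genes whose groups did not overlap. Summed levels went from 656 to 674 CPM in wild type to 595 to 606 CPM in I53A for the sterol genes, and from 1309 to 1519 CPM to 1100 to 1166 CPM for the fatty acid genes.

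In set 1 the deviations of replicate 3 correlated between the groups at 0.491. Those of replicates 1 and 2 correlated at 0.218 to 0.258, whether or not the numbers matched. The block by replicate number is thus borne out for replicate 3 only. In the names of the deposited count data, the numbers of I53A replicates 1 and 2 are the other way round from their titles. Replicate 3 of set 1 follows another naming style in both groups, and whether it was handled apart was not tested. With the block 22 members were called, and the 10 added, all lower, were Acat2, Pmvk, Idi1, Fdft1, Lss, Nsdhl, Sc5d, Acaca, Srebf1 and Srebf2. With replicates 1 and 2 alone 6 members were called higher and 13 lower, where 26.7% and 26.4% of all genes were. Without I53A replicate 1, 3 were called higher and 4 lower, where 12.5% and 11.5% of all genes were. Without I53A replicate 2, 3 were called higher and 5 lower, where 13.7% and 12.4% of all genes were.

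Of the 5 fatty acid genes, 3 were called lower and 1 higher in I53A without the block. Scd2 read 471, 464 and 494 CPM in wild type and 274, 282 and 279 CPM in I53A, with no overlap (log2 fold change -0.78 ± 0.06, edgeR adjusted p = 7.8e-05). Scd1 read 105, 107 and 106 CPM against 74.2, 69.0 and 71.9 CPM, again with every I53A value under every wild type value (-0.56 ± 0.07, edgeR adjusted p = 0.000507). Elovl6 (chromosome 3, 129235304 to 129341413 of mm9) moved the other way. It read 212, 221 and 211 CPM in wild type and 362, 362 and 328 CPM in I53A (0.71 ± 0.07, edgeR adjusted p = 0.000192). Fasn read 502, 479 and 662 CPM against 382, 356 and 451 CPM, so the groups did not overlap but replicate 3 was the highest of both. Its log2 fold change was -0.47 ± 0.14 (edgeR adjusted p = 0.0331), and the call was lost without wild type replicate 1 and without I53A replicate 1 or 2, with adjusted p up to 0.111. Acaca was at -0.31 ± 0.11 with edgeR adjusted p = 0.0511.

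Of the sterol genes in I53A, Sc4mol had the lowest log2 fold change. It read 65.8, 67.6 and 59.6 CPM in wild type and 39.5, 42.4 and 37.8 CPM in I53A, with a wide gap between the groups (-0.69 ± 0.09, edgeR adjusted p = 0.000698). Mvd read 45.0, 43.6 and 42.6 CPM against 32.3, 31.6 and 32.4 CPM, also without overlap (-0.45 ± 0.08, edgeR adjusted p = 0.00335). Tm7sf2 read 13.5, 14.6 and 18.8 CPM against 9.37, 10.6 and 9.56 CPM. The groups did not overlap (-0.66 ± 0.16, edgeR adjusted p = 0.0117), but the call was lost without I53A replicate 1 (adjusted p = 0.0524). Sqle read 72.4, 74.5 and 81.6 CPM in wild type and 87.5, 89.6 and 97.7 CPM in I53A, so the I53A values were the higher ones (0.27 ± 0.08, edgeR adjusted p = 0.0346). Its call was lost when any library but wild type replicate 3 was left out, with adjusted p up to 0.136, and that of Hsd17b7 (0.35 ± 0.12, edgeR adjusted p = 0.0491) when any of the 6 was, with adjusted p up to 0.171. Without a filter on low counts neither was called. The log2 fold changes of the 12 sterol genes not called ran from -0.34 for Idi1 to 0.14 for Ebp. Mvk, with one of the largest decreases under the QKO label, read 23.4, 24.3 and 22.9 CPM against 23.4, 20.9 and 23.9 CPM in I53A, and these groups overlapped (-0.05 ± 0.10).

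Of the regulators in I53A, Scap and Insig1 were higher, and neither factor was called in the fit without the block. Scap read 34.9, 31.2 and 38.8 CPM in wild type and 62.9, 55.2 and 64.8 CPM in I53A (log2 fold change 0.80 ± 0.11, edgeR adjusted p = 0.000916). Insig1 read 26.6, 24.2 and 23.4 CPM against 36.3, 40.2 and 39.4 CPM (0.64 ± 0.10, edgeR adjusted p = 0.00139). In both genes every I53A value lay above every wild type value. Stard4 read 39.2, 36.5 and 33.0 CPM against 49.8, 55.3 and 42.9 CPM, without overlap (0.45 ± 0.12, edgeR adjusted p = 0.0185). That call was lost without wild type replicate 2 and without I53A replicate 1 or 2, with adjusted p up to 0.0719. Srebf2 read 195, 178 and 239 CPM against 145, 130 and 181 CPM, and replicate 3 was the highest of both groups, so they overlapped. The log2 fold change of Srebf2 was -0.42 ± 0.15 (edgeR adjusted p = 0.0559). It was called lower in 6 of 14 alternatives, among them the replicate block and DESeq2. Srebf1 stood at -0.30 ± 0.16 and was called lower in 2 of 14, with the block and with replicates 1 and 2 alone. Insig2 stood at 0.15 ± 0.12.

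**Figure D2:**
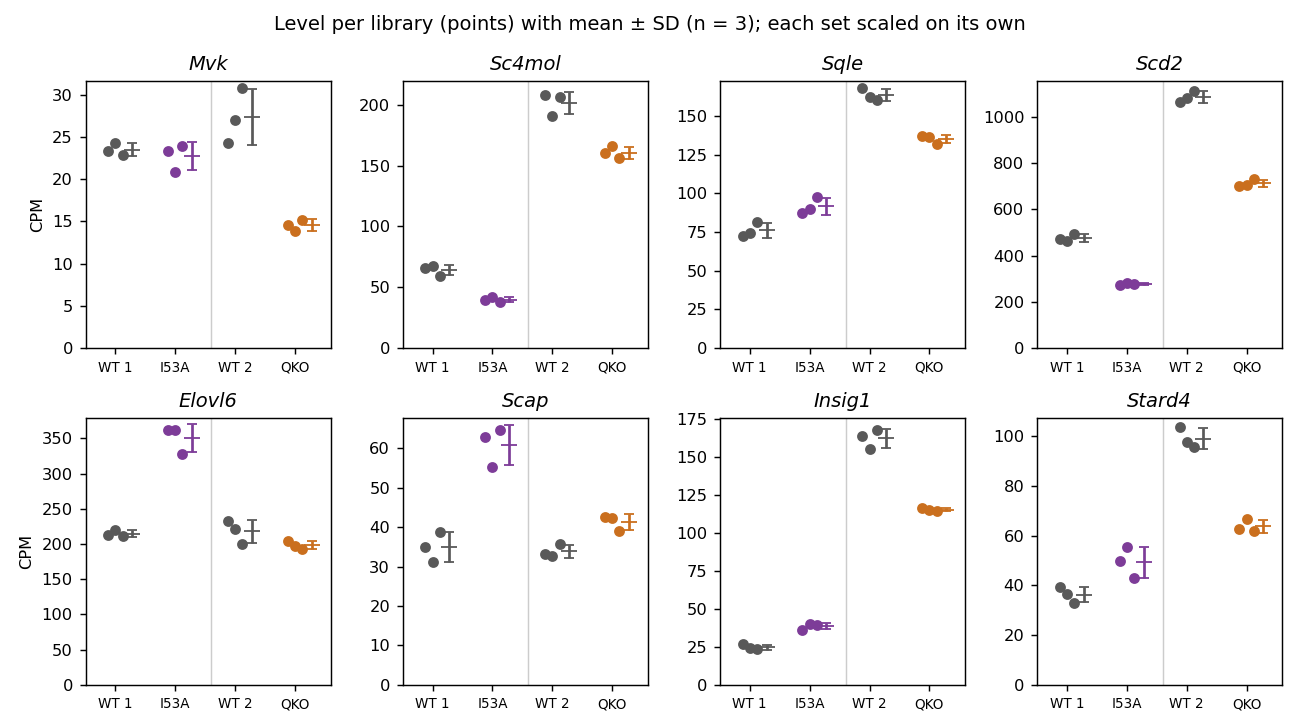
Level in CPM (y axis, from 0) of 8 genes in each library, with 3 points per group and a bar for mean ± SD (n = 3), for wild type (WT 1) and I53A of set 1 and wild type (WT 2) and QKO-labelled libraries of set 2, each set scaled on its own. Insig1 and Stard4 are higher in I53A and lower in the QKO-labelled libraries, and Scd2 is lower in both.

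Set side by side in the fits without the block, 6 genes were called lower in both mutants (Mvd, Tm7sf2, Sc4mol, Fasn, Scd1 and Scd2), and 1, Scap, was called higher in both. A further 4 (Sqle, Elovl6, Insig1 and Stard4) were called higher in I53A and lower under the QKO label. Of 14589 genes tested in both comparisons, 7.80% were called lower in both, 7.55% higher in both and 3.43% higher in I53A and lower under the QKO label. With the block in set 1, Acat2, Pmvk, Idi1, Lss, Nsdhl, Sc5d, Acaca, Srebf1 and Srebf2 were also called lower in both. The shares over all genes were not counted for that fit. The comparisons share no library, and the difference between their log2 fold changes, I53A minus QKO, was tested as an interaction in a joint fit of the 12 libraries. It was called above 0 for 11 of 28 genes, where 18.0% of all 16501 genes tested were, and below 0 for 2, where 18.1% were. The largest difference was that of Insig1, at 1.15 ± 0.09 (edgeR adjusted p = 3.6e-07), from 0.64 in I53A and -0.49 under the QKO label. Stard4 followed at 1.10 ± 0.13 (edgeR adjusted p = 1.2e-05), from 0.45 and -0.64. Elovl6 differed by 0.87 ± 0.09 and Sqle by 0.56 ± 0.08 (edgeR adjusted p = 5.0e-06 and 0.000113). Mvk and Ebp, lower under the QKO label and not called in I53A, differed by 0.88 ± 0.14 and 0.86 ± 0.13 (edgeR adjusted p = 0.000193 and 9.6e-05).

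The other differences that passed the test follow. Scap rose in both, with a difference of 0.54 ± 0.12 (edgeR adjusted p = 0.00323). Sc4mol and Scd1 fell further in I53A, with differences of -0.34 ± 0.10 and -0.24 ± 0.08 (edgeR adjusted p = 0.0120 and 0.0215). Mvd fell further under the QKO label, by a difference of 0.32 ± 0.10 (edgeR adjusted p = 0.0214), and Pmvk differed by 0.77 ± 0.25 (edgeR adjusted p = 0.0278). Insig2 and Hsd17b7 each differed by 0.49 on the log2 scale (edgeR adjusted p = 0.0118 and 0.00908). The call of Pmvk was lost in 8 of 19 alternatives, that of Mvd without wild type replicate 3 of set 2 and without QKO replicate 1 or 2, and that of Scd1 without a filter and without I53A replicate 2. For Fasn, Srebf1 and Srebf2 the difference was -0.03 ± 0.17, -0.08 ± 0.18 and -0.01 ± 0.17, so at this spread a moderate difference in either direction would not have been seen.

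**Figure D3:**
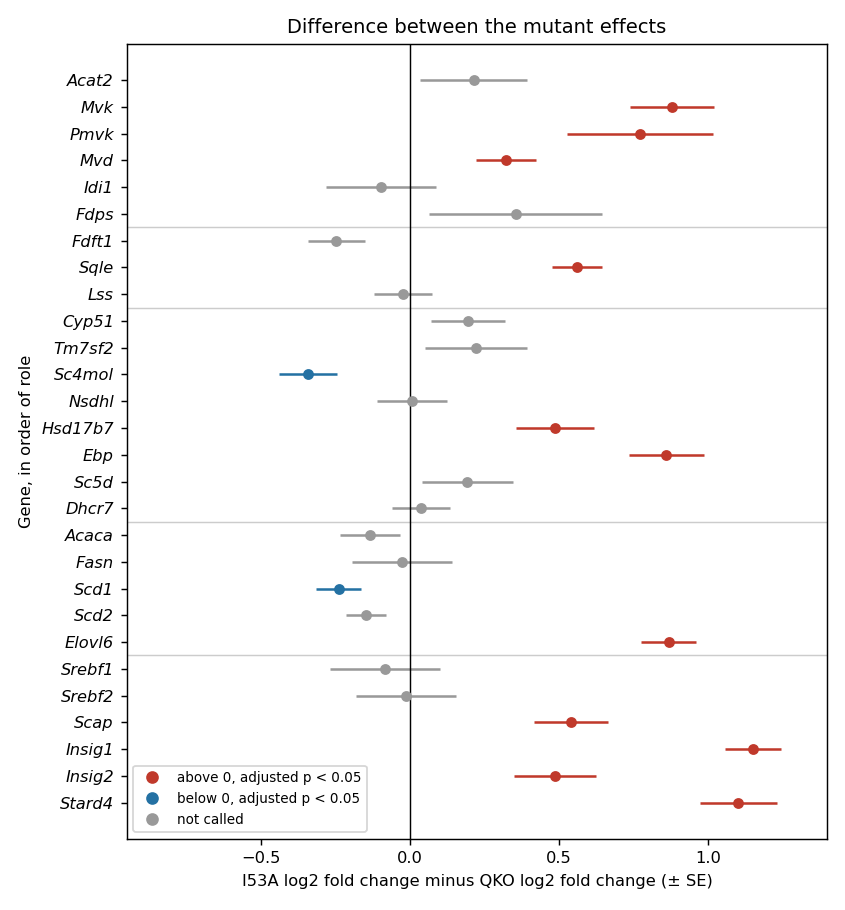
Difference of log2 fold changes, I53A minus QKO (x axis, ± SE), for each of the 28 genes (y axis, grouped by role), coloured by the edgeR call of the interaction over 12 libraries. Insig1 and Stard4 lie furthest to the right at 1.15 and 1.10, and Sc4mol and Scd1 are the 2 called below 0.

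Neighbouring genes of the pathway were counted from lists chosen by name, again with earlier results of these data known. The shares of all genes called were 18.1% higher and 17.4% lower in I53A and 28.7% and 29% under the QKO label. All list counts below are to be read against them. Many of the counts lie near these shares. Of 10 tested genes of other sterol and isoprenoid steps, 3 were called higher and 2 lower in I53A and 5 higher and 3 lower under the QKO label. Acat1, the mitochondrial thiolase, rose in both, by 0.79 in I53A and 0.42 under the QKO label on the log2 scale. Dhdds, a subunit of the enzyme that makes dolichol precursors, rose by 0.49 in I53A and fell by 0.43 under the QKO label, and Coq2 of ubiquinone synthesis fell by 0.44 in I53A.

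Among 16 genes of sterol uptake, transport and storage, 4 were called higher and 4 lower in I53A, and 2 higher and 9 lower under the QKO label. Apoe, the apolipoprotein E gene, read 890, 875 and 650.0 CPM in wild type and 272, 244 and 188 CPM in I53A, a log2 fold change of -1.78 ± 0.17 (edgeR adjusted p = 0.000217). Lipa, the lysosomal lipase that frees cholesterol, rose by 0.77, and Mylip, a ubiquitin ligase gene, fell by 0.73 in I53A. Under the QKO label the receptor gene Lrp8 fell by 0.98 and the sterol exporter Abcg1 by 0.65.

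A list of 13 genes covered SREBP processing and turnover and the oxysterol receptors Nr1h2 and Nr1h3. Of these, none was called higher and 4 lower in I53A, and 3 were called higher and 4 lower under the QKO label. Mbtps2, the site-2 protease that frees SREBP in the Golgi, read 45.5, 44.7 and 50.7 CPM in wild type and 23.1, 26.2 and 28.0 CPM in I53A (log2 fold change -0.87 ± 0.10, edgeR adjusted p = 0.000516). Nr1h2, an oxysterol receptor gene, fell by 0.29 in I53A, Syvn1, a ubiquitin ligase of the endoplasmic reticulum, rose by 0.42 and Paqr3 fell by 0.44 under the QKO label.

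Of 29 tested genes of other lipid synthesis, 7 were called higher and 7 lower in I53A, and 8 higher and 11 lower under the QKO label. Dgat2, which makes triglyceride, read 2.81, 3.52 and 4.36 CPM in wild type and 29.6, 28.3 and 39.8 CPM in I53A. It also read 5.86, 5.51 and 7.14 CPM in wild type of set 2 and 22.7, 18.7 and 21.5 CPM in the libraries labelled QKO. Dgat2 thus rose in both mutants without overlap, by 3.20 and 1.76 on the log2 scale (edgeR adjusted p = 2.2e-05 and 1.6e-19). Acss2, the cytosolic acetyl-CoA synthetase, fell by 0.97 and Fads3 rose by 0.98 in I53A. Elovl1 fell by 1.55 and Elovl2, which lengthens polyunsaturated fatty acids, rose by 0.88 under the QKO label.

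Markers of other cell types moved with the genotypes. In set 1 all 14 primitive endoderm markers rose in I53A, and their summed level was 320.2 to 358 CPM in wild type and 3339 to 3442 CPM in I53A. All 5 tested of 10 fibroblast markers rose too (25.4 to 27.4 against 65.4 to 74.6 CPM), while Dcn, Lum and Postn were at or near 0 throughout. Of 7 trophoblast markers with counts, 4 rose (37.0 to 41.4 against 114 to 124 CPM). The 8 embryonic stem cell markers summed to 5343 to 5837 CPM in wild type and 4381 to 4859 CPM in I53A, and 4 of them fell and 1 rose. In set 2 the primitive endoderm markers summed to 231 to 253 CPM in wild type and 319 to 333 CPM in the libraries labelled QKO, with 7 of 12 tested higher and Gata4 and Gata6 not called. Fibroblast markers there summed to 22.5 to 23.1 against 41.2 to 42.4 CPM, with Dcn and Lum at 0 in both groups, and 3 of 4 tested trophoblast markers fell (58.2 to 67.2 against 28.8 to 31.2 CPM). Embryonic stem cell markers summed to 5641 to 5708 against 6705 to 6787 CPM, and 6 of the 8 rose and 2 fell. The part of other cell types in the changes of the lipid genes was not tested.

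The wild type libraries of the 2 sets also differed in these genes. Scaled over all 12 libraries, Fdps read 7.61 ± 1.35 CPM in wild type of set 1 and 139 ± 3.16 CPM in wild type of set 2 (mean ± SD, n = 3), an 18.3-fold higher level. Idi1 was 8.73-fold higher in set 2, with 12 ± 1.58 and 105 ± 8.40 CPM, and Insig1 7.36-fold higher, with 23.3 ± 1.69 and 172 ± 6.63 CPM. Acaca was 4.75-fold and Sc4mol 3.52-fold higher. The median ratio of set 2 to set 1 was 2.08 over the 28 genes and 0.987 over all genes tested, and 15 of 28 were over 2-fold higher, where 10.2% of all genes were. Ebp was the lowest, at 0.908 of its set 1 level, and Scap and Elovl6 were at 1.09 and 1.14. These ratios are a description with no test, since the set is also a batch. Per the file headers the alignments of set 1 alone were named unique, so set, culture and alignment cannot be told apart.

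**Figure D4:**
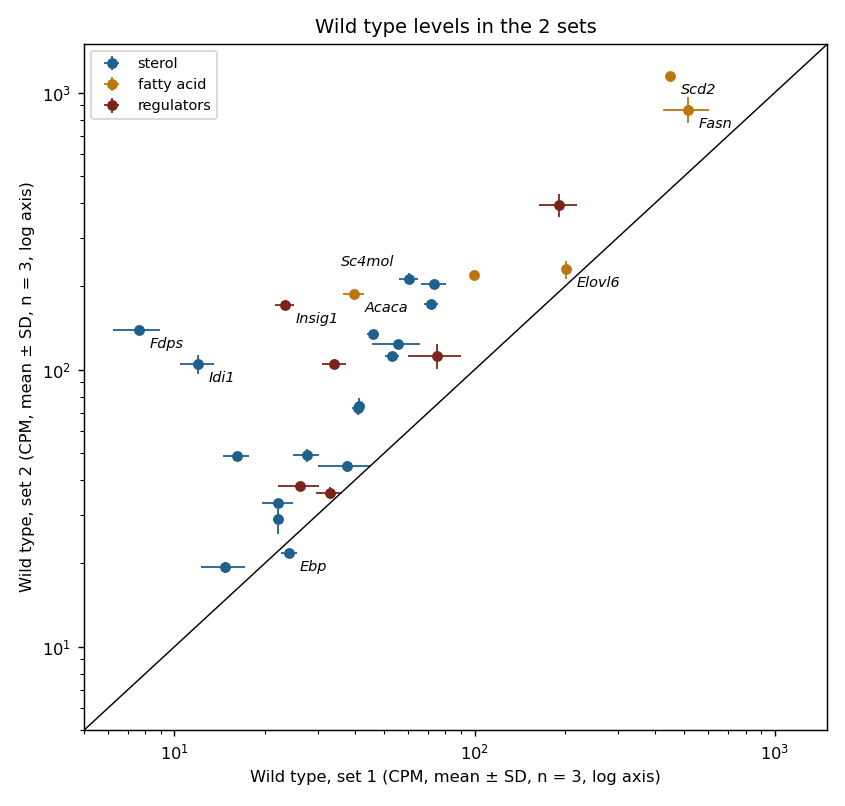
Mean level in CPM ± SD (n = 3) of the 28 genes in wild type cells of set 1 (x axis) and set 2 (y axis), both on log axes, scaled over all 12 libraries, with the line of equal levels and colours for sterol genes, fatty acid genes and regulators. All points but Ebp lie above the line, and Fdps, Idi1 and Insig1 lie furthest from it.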

How the data were processed

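RNA-seq counts of 12 libraries (4 groups of 3) were analysed. For each library the authors deposited raw counts per gene with the gene length (another value) beside them. Per the file headers, featureCounts version 1.6.3 counted paired-end fragments per gene name against GENCODE gene models of NCBIM37 (mm9), with no option set for strand, multiple alignments or overlapping genes. Alignment names contain TopHat and unique in set 1 but not in set 2, per the file headers. Bowtie2, DESeq2, featureCounts, HISAT2, SAMtools and the builds dm6 and mm9 appear in the submitters' processing notes. TRIzol extraction and the Illumina TruSeq procedure were used, per the labels' protocols.

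Counts were filtered with filterByExpr, scaled by TMM and compared by edgeR's quasi-likelihood test (edgeR version 4.0.16 in R version 4.3.3, robust dispersion), two-sided, with Benjamini-Hochberg adjustment over all genes tested and a threshold of 0.05. Each genotype comparison used the 6 libraries of its set, and the difference of effects used all 12. A gene "rose", "fell" or was "called" when it passed that threshold. CPM (counts relative to the scaled library total) are given per replicate 1, 2 and 3 within a set, and FPKM divides them by the deposited length. Log2 fold changes are given ± SE. The procedure was tested on simulated counts with the same spread for every gene and no replicate effect. That test does not cover a replicate that stands apart, as replicate 3 of set 1 does. Depth ranged from 12585621 to 23378930 counts, without molecular identifiers.

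In set 1 the deviations of same-numbered libraries correlated at 0.229, 0.258 and 0.491. Replicate 1 of one group and replicate 2 of the other correlated at 0.218 and 0.241, so only replicate 3 was set apart as a pair. The block used all 3 numbers. In set 2 the same-numbered libraries correlated at 0.0237, -0.0039 and 0.0420, so they share only a number. All members are named. Of each other list up to 3 of the largest changes past the threshold per comparison are named, and some that this rule would name are not reported here. The members and lists were chosen with earlier results of these data known. Alternatives were other scaling, filters, DESeq2 version 1.42.0, the replicate block, replicates 1 and 2 of set 1 only, a shared spread and each library left out. Leaving out the 7 members whose exons overlap another gene was added after seeing the data.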

Additional observations from a re-analysis of the deposited data

Results flagged for a closer look

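The difference between the I53A and QKO effects passed edgeR's interaction test for 13 of the 28 genes, with values on the log2 scale. It was above 0 for Insig1 (1.15), Stard4 (1.10), Mvk (0.88), Elovl6 (0.87), Ebp (0.86), Pmvk (0.77), Sqle (0.56), Scap (0.54), Hsd17b7 (0.49), Insig2 (0.49) and Mvd (0.32). It was below 0 for Sc4mol (-0.34) and Scd1 (-0.24). Set and genotype contrast differ together here, as each mutant has wild type libraries of its own set, and the wild type levels of Insig1 and Stard4 were 7.36-fold and 3.07-fold higher in set 2.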

How the results depend on the processing

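Among single genes no direction of a called change reversed under any alternative that was run. In I53A against wild type, where 12 members were called, the replicate block called 22 members and 8798 genes in all, against 5512 without it, and replicates 1 and 2 alone called 19 members and 8343 genes. Leaving out 1 library gave 7 to 13 members and 3828 to 5917 genes in all. The cause of these changes was not tested. The block ended no call of a member in any of the comparisons. Under the QKO label, where 25 members and 8903 genes in all were called, the alternatives gave 19 to 27 members. The 19 came with the spread from all 12 libraries (6825 genes in all) and the 27 with library totals without TMM (8900). The block gave 26 members and 9080 genes. For the difference of effects, where 13 members and 5961 genes were called, the alternatives gave 11 to 17 members. The 17 came with the block (8076 genes in all), and the settings with 11 called 5090 to 5690 genes. Leaving out members with overlapping exons left 9, 19 and 12 calls among 21 genes. These are to be read against the shares of all genes called in the main fits. Of member calls over all alternatives, 28 were gained and 20 lost in I53A, 8 and 8 under the QKO label and 12 and 13 for the difference. With the 250 bases before the start alone, CCAAT and GGGCGG stayed in 19 of 23 member promoters each, against 37.5% and 35.4% of all genes. Fdps, Idi1, Tm7sf2 and Hsd17b7 had the lowest CPM of the group in wild type of set 1. The SE in I53A was largest for Fdps (0.30), Pmvk (0.21) and Idi1 (0.19), and the part of depth in it was not tested.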
